A study of Triticum aestivum with 42 samples.

Results

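The youngest step of a simulated autumn was examined in leaf of Harnesk, a winter variety of wheat. The comparison set 2 arrays of leaf harvested 5 weeks after germination against 2 arrays of leaf harvested at 3 weeks. These 4 arrays were chosen by variety, tissue and week from the labels, out of 42 Affymetrix Wheat Genome arrays in the series. At 5 weeks the plants had reached days of 14°C, nights of 10°C, 12 h of light and a PAR (photosynthetically active radiation, unit not stated) of 185. At 3 weeks they had known only days of 16°C, nights of 14°C, 14 h of light and a PAR of 280. Plant age, temperature, day-length and light level all differ between the weeks and cannot be told apart by this comparison. Leaf and crown were taken in the middle of the light period, so that the time since lights-on also differed between the weeks. That time cannot be told apart from the other differences. Each RNA came from several pooled plants. The crown, which held the shoot apex with some stem and immature leaf bases, was harvested from Harnesk at the same weeks on 2 arrays each. Both tissues were also taken at 9 weeks, at days of 8°C, nights of 4°C, 9 h of light and a PAR of 95. Control plants of the winter variety Solstice had the same light and day-length with no fall in temperature, and gave 1 leaf array at 5 weeks and 1 at 3 weeks.

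In a winter cereal, falling temperature and shortening days bring cold acclimation in leaf and the slow release of the apex from its block to flowering. Day-length is read against a circadian clock, in which the morning gene LHY and the evening genes TOC1 and GI repress and activate one another in Arabidopsis. GI in turn leads to CONSTANS and FT, the mobile signal that leaves the leaf for the apex. VRN1, a MADS-box gene, promotes flowering in wheat once cold has been experienced.

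Each deposited value is a ratio to a median of that probe-set, so that levels can be compared between Harnesk samples and not between genes. The control arrays stand on another base: the median value of 18 histone probe-sets was 0.857 at 5 weeks and 0.831 at 3 weeks in control leaf, against 0.094 at 5 weeks and 0.072 at 3 weeks in Harnesk leaf. Control values are therefore read between weeks only, and their levels are not set against those of Harnesk. The 4 leaf arrays had medians of 1.01 and 1.06 at 5 weeks, against 1.04 and 1.09 at 3 weeks, and interquartile ranges of 0.706 and 0.727 log2 at 5 weeks, against 0.761 and 0.855 log2 at 3 weeks. Rank correlation between replicates was 0.845 at 5 weeks and 0.815 at 3 weeks, and 0.757 to 0.791 between the weeks. The 7 probe-sets of the Bio hybridisation spikes were lower at 5 weeks by 0.24 to 0.57 on the log2 scale, a shift whose part in the results was not tested. Leaf identity held in the marker probe-sets: 34 of 36 of photosynthesis were higher in leaf than in crown. In crown, 17 of 18 of histones and 10 of 10 of tubulins were higher. Of the 36 photosynthesis probe-sets, 28 were of 1 gene, rbcl. The summed values of the 18 histone probe-sets were 4.76 to 5.10 in leaf at 5 weeks and 3.39 to 3.64 in leaf at 3 weeks, against 308.5 to 365.5 in crown over both weeks. A few probe-sets made up much of these sums: Ta.7378.17.S1_x_at (wcH2B-8) held 178.4 to 232.2 of the crown sums, and Ta.27192.1.S1_s_at (H2A-3) held 1.66 and 1.39 of the leaf sums at 5 weeks, against 0.93 and 0.60 at 3 weeks. For the tubulins the sums were 3.28 to 3.69 at 5 weeks and 3.84 to 3.93 at 3 weeks in leaf, and 19.9 to 20.5 in crown. In tissue samples, fewer cells of a type and less RNA per cell cannot be told apart.

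Of 61179 probe-sets, 1663 differed between leaf at 5 and 3 weeks by 2-fold or more with an adjusted p under 0.05 (limma, spread shared over 12 Harnesk arrays), which is 2.72% of those tested. Transcript abundance rose in 905 (1.48%) and fell in 758 (1.24%). At a fold of at least 5, 90 rose and 110 fell, a split that was not recounted under other normalisations. Without a fold threshold 3455 rose (5.65%) and 3190 fell (5.21%), together 10.9%. The median change over all probe-sets was -0.04 on the log2 scale. The called probe-sets came from 1334 transcript clusters, the groups of sequences from which the array was designed. In 231 of the 232 clusters with 2 or more called probe-sets, all moved the same way. The suffixes of shared probes (_s_at, _x_at and _a_at) were carried by 34.3% of the called probe-sets and 20.8% of all probe-sets. Such probe-sets may read several members of a family or several homoeologous copies.

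**Figure D1:**
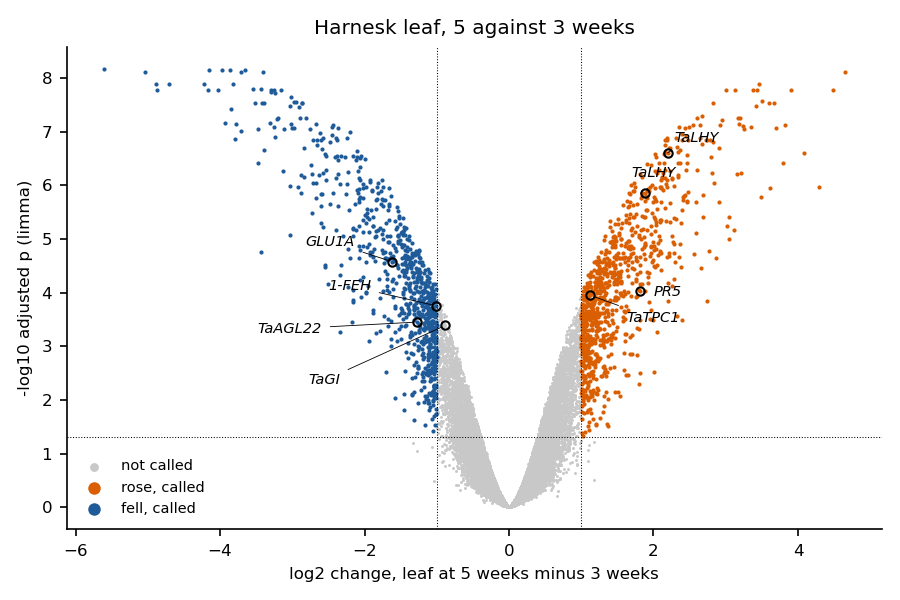
Each point is 1 of the 61179 probe-sets, with its log2 change in Harnesk leaf (5 weeks minus 3 weeks) on the x axis and the -log10 adjusted p from limma on the y axis. Dotted lines mark a fold of 2 and an adjusted p of 0.05. The 905 orange points rose and the 758 blue points fell, and open circles mark named genes, with both TaLHY probe-sets among the rises and TaGI just inside the 2-fold line.

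The clearest change in a gene of known role was in TaLHY, the wheat form of the morning clock gene. Probe-set Ta.27013.1.S1_at gave 4.83 and 4.69 at 5 weeks, against 0.98 and 1.10 at 3 weeks. It rose 4.58-fold (log2 change 2.20 ± 0.12 SE, limma adjusted p = 2.45e-07). The second probe-set, Ta.7524.1.A1_at, gave 3.91 and 4.02 at 5 weeks, against 1.12 and 1.03 at 3 weeks, a rise of 3.70-fold (log2 1.89 ± 0.13 SE, limma adjusted p = 1.41e-06). On both probe-sets the replicates lay close together and the weeks were far apart. No other time of day was sampled, so that a change in daily timing was not tested. In crown the probe-sets parted: Ta.27013.1.S1_at had 1.32 and 1.37 at 5 weeks, against 0.60 and 0.62 at 3 weeks, whereas Ta.7524.1.A1_at had 0.95 and 1.10 at 5 weeks, against 0.97 and 1.07 at 3 weeks. The leaf change exceeded the crown change by 1.06 log2 on the first (limma adjusted p = 0.0042) and by 1.89 log2 on the second (limma adjusted p = 9.60e-05). The control leaf arrays gave 0.94 at 5 weeks and 1.24 at 3 weeks on the first, and 1.62 at 5 weeks and 2.00 at 3 weeks on the second, so that neither was higher at 5 weeks. These controls are single arrays of another variety and allow no test. At 9 weeks leaf had 2.76 and 2.57 on the first probe-set and 1.15 and 1.00 on the second, so the highest leaf level of the 3 weeks was at week 5.

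Of the evening genes of the clock, TaGI fell on its probe-set and TaTOC1 on 1 of 5. TaGI (Ta.10215.1.S1_at) gave 1.06 and 1.08 at 5 weeks, against 2.08 and 1.86 at 3 weeks, and fell by 0.88 on the log2 scale (SE 0.12, limma adjusted p = 0.000408). It thus fell to 0.543 of its level at 3 weeks, short of the 2-fold limit. In crown TaGI had 0.25 and 0.27 at 5 weeks, against 0.75 and 0.78 at 3 weeks. That fall, by 1.58 on the log2 scale, was larger than in leaf by 0.70 log2 (limma adjusted p for the difference = 0.04). The control leaf arrays had 1.48 at 5 weeks and 1.07 at 3 weeks.

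TaTOC1 was represented by 5 probe-sets, of which 1 passed. Ta.12422.3.S1_a_at gave 0.59 and 0.57 at 5 weeks, against 1.08 and 0.90 at 3 weeks, and fell by 0.77 on the log2 scale (SE 0.13, limma adjusted p = 0.00244). Its leaf change was lower than its crown change by 1.13 log2 (limma adjusted p = 0.00416), with crown at 1.07 and 1.11 at 5 weeks, against 0.79 and 0.91 at 3 weeks. The control leaf arrays had 0.169 at 5 weeks and 0.215 at 3 weeks on it, the same order as Harnesk leaf. A second probe-set, Ta.12422.1.S1_at, had 0.54 and 0.56 at 5 weeks, against 1.18 and 0.68 at 3 weeks (limma adjusted p = 0.0512). The other 3 had changes of -0.22 to 0.09 log2 and did not pass. With quantile normalisation of the arrays, the first probe-set also missed the threshold (limma adjusted p = 0.103).

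**Figure D2:**
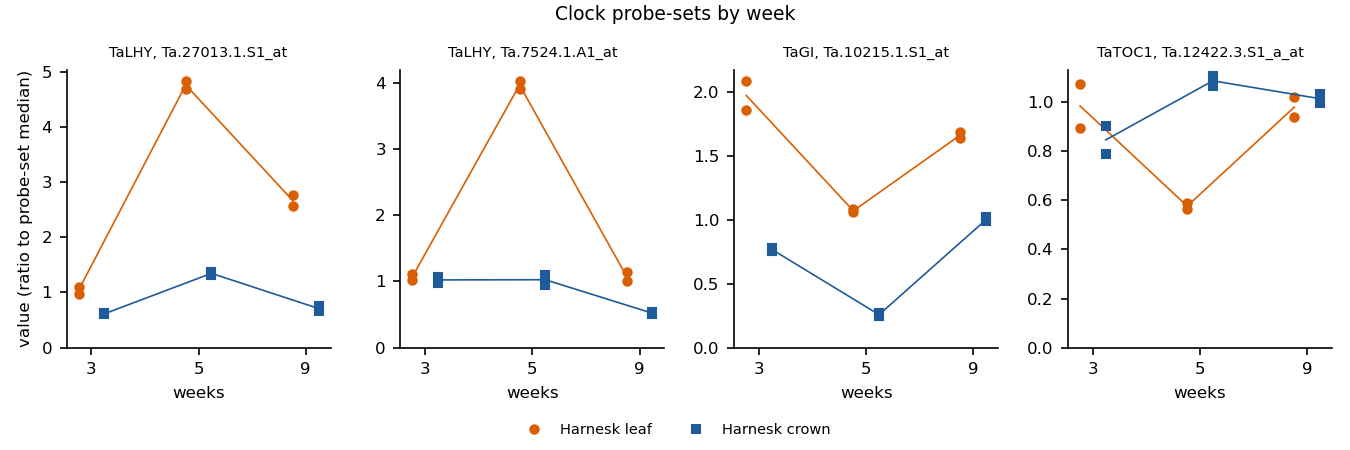
Deposited values (ratio to the probe-set's median, linear axis from 0) of 4 clock probe-sets at 3, 5 and 9 weeks, spaced evenly on the x axis. Orange circles are the 2 Harnesk leaf arrays and blue squares the 2 Harnesk crown arrays of a week, and lines join their means. Both TaLHY probe-sets stand highest in leaf at 5 weeks, the week in which TaGI and TaTOC1 stand lowest in leaf.

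Of the 15 photoperiod probe-sets that the study assigned to genes, 3 rose, 2 fell and 10 did not pass at any fold, a share of 33.3% beside 10.9% of all probe-sets, with a median change of -0.13 log2 against -0.04. The third that rose was an ESD4-like probe-set (Ta.27700.1.S1_at), named for a SUMO protease that delays flowering in Arabidopsis. It gave 0.47 and 0.53 at 5 weeks, against 0.35 and 0.20 at 3 weeks (log2 change 0.91 ± 0.21 SE, limma adjusted p = 0.0164). The replicates at 3 weeks stood well apart, and the call was lost without either the second array of 5 weeks or the second array of 3 weeks, under quantile normalisation and with the leaf arrays alone (limma adjusted p up to 0.111). TaHD1, the supposed CONSTANS of wheat, had 1.51 and 1.29 at 5 weeks, against 1.57 and 1.62 at 3 weeks (limma adjusted p = 0.377). TaFT (Ta.30640.1.A1_at) had 1.49 and 1.93 at 5 weeks, against 1.60 and 1.63 at 3 weeks, with overlapping groups (limma adjusted p = 0.824). The photoreceptors TaCRY2, TaPHYA and TaPHYC changed by -0.20, 0.17 and -0.02 log2 and did not pass.

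In the vernalisation pathway 2 of 7 probe-sets rose and none fell at any fold (28.6% passed, beside 10.9% of all probe-sets). Both read genes of the VIL family, PHD-finger proteins that in Arabidopsis help to silence the floral repressor FLC in the cold. VIL3 (Ta.16935.1.S1_at) gave 0.42 and 0.45 at 5 weeks, against 0.29 and 0.22 at 3 weeks, and rose by 0.79 log2 (SE 0.15, limma adjusted p = 0.0048). VIL2 rose on TaAffx.92348.1.S1_at, with 0.46 and 0.52 at 5 weeks, against 0.30 and 0.30 at 3 weeks (log2 0.70 ± 0.14 SE, limma adjusted p = 0.00684). Neither pair of weeks overlapped, as was so for 43.1% of all probe-sets. For VIL3 the control leaf arrays had 0.391 at 5 weeks and 0.467 at 3 weeks. On TaAffx.92348.1.S1_at they had 0.193 at 5 weeks and 0.161 at 3 weeks. The other VIL2 probe-set, Ta.7238.1.S1_at, had 0.56 and 0.70 at 5 weeks, against 0.54 and 0.44 at 3 weeks, and did not pass (limma adjusted p = 0.171). VIL1 had 0.57 and 0.83 at 5 weeks, against 0.64 and 0.80 at 3 weeks. With the 6 Harnesk leaf arrays alone, neither VIL call was kept, and that of VIL2 was also lost under quantile normalisation (limma adjusted p up to 0.0648 for VIL3 and 0.115 for VIL2).

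TaVRN1 did not pass on any of its 4 probe-sets in the main limma model of the 12 Harnesk arrays. Ta.30607.1.A1_at had 0.59 and 0.33 at 5 weeks, against 0.65 and 0.90 at 3 weeks (log2 change -0.79 ± 0.24 SE, limma adjusted p = 0.0547). On this probe-set the values at 5 weeks lay below those at 3 weeks, and it passed without the first array of 5 weeks (log2 change -1.20, limma adjusted p = 0.00664), without the first array of 3 weeks (0.0253) and where limma's prior variance followed the mean level (0.0488). Without the second array of 5 weeks its change was -0.38 log2 (limma adjusted p = 0.305). Ta.142.1.S1_at had 0.36 and 0.42 at 5 weeks, against 0.37 and 0.56 at 3 weeks. TaAffx.143995.17.S1_s_at had 0.23 and 0.19 at 5 weeks, against 0.23 and 0.18 at 3 weeks. On both the groups overlapped. TaAffx.143995.17.A1_at had 0.82 and 0.96 at 5 weeks, against 0.90 and 0.78 at 3 weeks. The leaf arrays of 9 weeks had 0.68 and 0.54 on TaAffx.143995.17.S1_s_at, above all 4 of the younger leaf arrays. The paper describes TaVRN2 transcript on the arrays, but its probe-set is not given in the sources used here, and it is not analysed.

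Among 30 probe-sets of MADS-box genes, transcription factors of floral and meristem identity, 2 rose and 3 fell at any fold (16.7%, beside 10.9% of all probe-sets), with a median of -0.05 log2. Past the 2-fold limit stood 1 rise and 2 falls. TaAGL22 (Ta.22382.1.S1_at) gave 1.03 and 1.44 at 5 weeks, against 3.01 and 2.90 at 3 weeks, a fall by 1.28 on the log2 scale (SE 0.17, limma adjusted p = 0.000354). Its change in leaf was lower than in crown by 1.10 log2 (limma adjusted p = 0.0233), where it had 0.72 and 0.87 at 5 weeks, against 0.98 and 0.82 at 3 weeks. The control leaf arrays had 1.08 at 5 weeks and 1.42 at 3 weeks for TaAGL22, the same order as Harnesk leaf. TaAGL39 (Ta.12700.1.S1_at) gave 0.88 and 0.93 at 5 weeks, against 2.26 and 1.51 at 3 weeks, a fall by 1.03 on the log2 scale (SE 0.20, limma adjusted p = 0.00542). Its replicates at 3 weeks were far apart but both lay above those at 5 weeks. With the leaf arrays alone the TaAGL39 call was lost (limma adjusted p = 0.0539). The control leaf arrays had 0.944 at 5 weeks and 1.071 at 3 weeks for TaAGL39. TaAGL7 (Ta.25343.1.A1_at), of the group close to SOC1, a floral integrator of Arabidopsis, gave 0.53 and 0.92 at 5 weeks, against 0.38 and 0.32 at 3 weeks. It rose by 1.01 log2 (SE 0.21, limma adjusted p = 0.00791), which was lost under quantile normalisation and with leaf arrays alone (limma adjusted p up to 0.0705). The control leaf arrays had 0.689 at 5 weeks and 0.668 at 3 weeks for TaAGL7. TaAGL11 and TaAGL35/17 passed below 2-fold, at 0.40 and -0.55 log2. Both calls were lost under quantile normalisation, with the leaf arrays alone and without single arrays (limma adjusted p up to 0.309 for TaAGL11 and 0.283 for TaAGL35/17). TaVRT2 had a change of 0.42 log2 and did not pass.

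The autonomous pathway, in which FCA acts on RNA processing of the floral repressor FLC in Arabidopsis, gave opposite signs within 1 gene, on calls that were not stable. The TaFCA probe-set Ta.5855.2.S1_x_at rose by 0.55 log2, with 0.48 and 0.51 at 5 weeks, against 0.33 and 0.35 at 3 weeks (limma adjusted p = 0.0122). TaAffx.98485.6.S1_at fell by 0.49 on the log2 scale, with 0.77 and 0.78 at 5 weeks, against 1.11 and 1.06 at 3 weeks (limma adjusted p = 0.0246). Both were below 2-fold, and 6 of the 8 probe-sets of the pathway did not pass (25% passed, beside 10.9% of all). Neither call was kept under quantile normalisation or with the leaf arrays alone (limma adjusted p up to 0.209 for the rise and 0.4 for the fall), and the fall was also lost with each array centred on its median and without single arrays. Among 5 probe-sets of floral integrators and meristem identity genes, 1 rose and 1 fell (40%), and neither under quantile normalisation or with the leaf arrays alone. The FD-like probe-set Ta.30801.1.S1_at, of the bZIP factor that binds FT in Arabidopsis, had 1.06 and 1.11 at 5 weeks, against 1.54 and 1.80 at 3 weeks (log2 change -0.62, limma adjusted p = 0.027). The FWA-like probe-set Ta.6436.1.S1_at had 0.82 and 0.83 at 5 weeks, against 0.59 and 0.64 at 3 weeks (log2 change 0.43, limma adjusted p = 0.0385). Leaving out either array of 5 weeks also ended both calls (limma adjusted p up to 0.126 for FD-like and 0.347 for FWA-like over the alternatives). Over all 69 probe-sets of phase-transition and MADS-box genes together, 10 rose and 7 fell (24.6%, beside 10.9% of all probe-sets).

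Gibberellin genes showed 2 rises among 8 probe-sets (25% passed, beside 10.9% of all probe-sets), and none with the leaf arrays alone. GA20ox1a, a late enzyme of gibberellin synthesis, rose by 0.74 log2 (SE 0.14, limma adjusted p = 0.00477), with 3.05 and 3.85 at 5 weeks, against 2.11 and 1.99 at 3 weeks. Its change in leaf exceeded that in crown by 0.93 log2 (limma adjusted p = 0.0214). The control leaf arrays had 1.336 at 5 weeks and 1.353 at 3 weeks for GA20ox1a. The probe-sets of the copies GA20ox1b and GA20ox1d had changes of -0.07 to 0.27 log2 and did not pass. TaKO, the ent-kaurene oxidase of the early pathway, had 1.96 and 1.61 at 5 weeks, against 1.31 and 1.15 at 3 weeks (log2 change 0.53, limma adjusted p = 0.0468). This call was also lost under quantile normalisation, with low probe-sets filtered out, where limma's prior variance followed the mean level, without the first array of 5 weeks and without the second of 3 weeks (limma adjusted p up to 0.233). On the control leaf arrays TaKO had 1.22 at 5 weeks and 5.99 at 3 weeks, the opposite order. TaKS, the ent-kaurene synthase that acts before it, had 2.67 and 1.59 at 5 weeks, against 1.00 and 1.46 at 3 weeks on Ta.8418.1.S1_at, and did not pass (limma adjusted p = 0.0995).

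**Figure D3:**
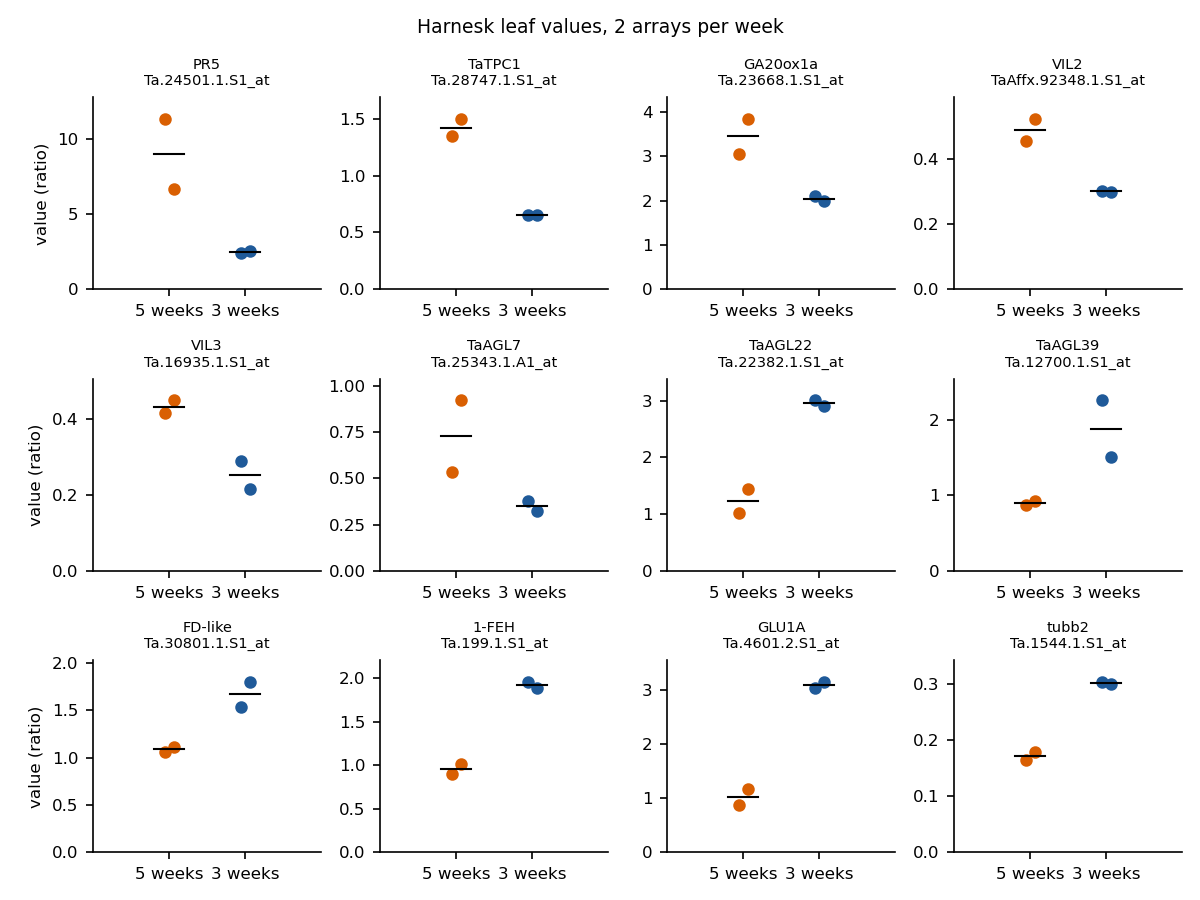
Deposited values (ratio, linear axes from 0) of 12 probe-sets in Harnesk leaf, with 5 weeks in orange at the left and 3 weeks in blue at the right. Points are the 2 arrays of a week and bars their means. In every panel the weeks do not overlap, as in 43.1% of all probe-sets, and the panels were drawn from probe-sets that had passed. The replicates of PR5 and TaAGL7 at 5 weeks and of TaAGL39 at 3 weeks are the farthest apart.

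Of the 1663 called probe-sets, 70 carried 1 gene symbol, of which 39 rose and 31 fell. Symbols are known for 1273 probe-sets, and 5.5% of these were called, beside 2.72% of all probe-sets. For most of them the symbol is a locus number without a described function. A descriptive name was attached to 5 of the 70, those of PR5, TaTPC1, H2A-3, 1-FEH and GLU1A. PR5 (Ta.24501.1.S1_at), a thaumatin-like protein of defence, gave 11.4 and 6.69 at 5 weeks, against 2.43 and 2.56 at 3 weeks. It rose 3.50-fold (log2 1.81 ± 0.21 SE, limma adjusted p = 9.27e-05). The array of replicate 1 at 5 weeks had the higher level. In crown PR5 was low, at 0.12 and 0.15 at 5 weeks, against 0.19 and 0.23 at 3 weeks, and the leaf change exceeded the crown change by 2.42 log2 (limma adjusted p = 0.000396). The control leaf arrays had 3.68 at 5 weeks and 13.5 at 3 weeks, again the opposite order, and Harnesk leaf at 9 weeks had 27.2 and 27.5.

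A like spread between replicates was seen in LOC543422 and LOC543342. LOC543422 (Ta.62.1.S1_x_at) gave 11.3 and 5.99 at 5 weeks, against 3.03 and 2.65 at 3 weeks, with 31.6 and 33.2 at 9 weeks. Its further probe-sets Ta.278.1.S1_at and Ta.278.1.S1_x_at changed by 0.94 and 0.85 log2 and did not pass (limma adjusted p = 0.111 and 0.152). LOC543342 (Ta.27762.1.S1_x_at) gave 9.86 and 5.15 at 5 weeks, against 2.43 and 2.28 at 3 weeks, with 30.7 and 31.1 at 9 weeks. Its further probe-set Ta.27762.1.S2_at changed by -0.19 log2 and did not pass (limma adjusted p = 0.485). As with PR5, replicate 1 was the higher at 5 weeks, and the control leaf arrays had 5.76 at 5 weeks and 25.8 at 3 weeks for LOC543422, and 2.94 at 5 weeks and 19.1 at 3 weeks for LOC543342. Without replicate 1 of 5 weeks, LOC543422 no longer passed (limma adjusted p = 0.0875).

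Of the other defence genes, 1 of 2 probe-sets of xip, a xylanase inhibitor, rose by 0.65 log2 (limma adjusted p = 0.0063). That call was lost with the leaf arrays alone (limma adjusted p = 0.0721). Both probe-sets of the glucanase Glc1 did not pass. TaTPC1, a cation channel of the vacuole membrane, gave 1.35 and 1.50 at 5 weeks, against 0.65 and 0.65 at 3 weeks (log2 1.13 ± 0.13 SE, limma adjusted p = 0.000112), and its leaf change exceeded that in crown by 1.05 log2 (limma adjusted p = 0.0062). The control leaf arrays had 1.115 at 5 weeks and 1.01 at 3 weeks for TaTPC1. GLU1A (Ta.4601.2.S1_at), a beta-glucosidase that releases benzoxazinones, gave 0.87 and 1.16 at 5 weeks, against 3.03 and 3.15 at 3 weeks. It fell by 1.62 on the log2 scale (SE 0.16, limma adjusted p = 2.65e-05), and was lower again at 9 weeks, at 0.23 and 0.18. The control leaf arrays had 0.081 at 5 weeks and 0.128 at 3 weeks for GLU1A, the same order as Harnesk leaf.

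Fructan is a store of sugar that wheat builds up in the cold, and fructan exohydrolases break it down. The probe-set of 1-FEH, Ta.199.1.S1_at, gave 0.90 and 1.02 at 5 weeks, against 1.96 and 1.89 at 3 weeks, and fell by 1.01 on the log2 scale (SE 0.12, limma adjusted p = 0.000176). In crown it had 0.98 and 0.96 at 5 weeks, against 1.01 and 1.02 at 3 weeks, and the difference between the tissues was -0.95 log2 (limma adjusted p = 0.00871). The control leaf arrays had 1.52 at 5 weeks and 1.22 at 3 weeks. The 3 probe-sets of 6-FEH had changes of -0.45 to -0.08 log2, and none passed.

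Tubulins, the subunits of microtubules, fell on 6 of 10 probe-sets (beside 5.21% of all probe-sets) and rose on none, all below 2-fold, with a median of -0.58 log2. The probe-set of tubb2 (Ta.1544.1.S1_at) had 0.17 and 0.18 at 5 weeks, against 0.30 and 0.30 at 3 weeks (log2 change -0.82 ± 0.12 SE, limma adjusted p = 0.000749). The 4 probe-sets of Tubb5, another beta-tubulin, fell by 0.60 to 0.98 on the log2 scale, and tubb1 fell by 0.55. These probe-sets may share transcripts. Those of the alpha-tubulin TUBA, of Tubb4 and of tubb3 had changes of -0.03 to 0.28 log2. Without replicate 1 of 5 weeks, 1 of the 10 tubulin probe-sets fell, and likewise 1 with the leaf arrays alone. Their median change was -0.47 log2 without that array.

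Histones, which package DNA and are made chiefly in dividing cells, rose on 5 of 18 probe-sets and fell on 1 (33.3% passed, beside 10.9% of all probe-sets). H2A-3 (Ta.27192.1.S1_s_at) passed 2-fold, with 1.66 and 1.39 at 5 weeks, against 0.93 and 0.60 at 3 weeks (log2 1.03 ± 0.19 SE, limma adjusted p = 0.00359). Its other probe-set, Ta.27192.1.S1_at, changed by 0.24 log2 and did not pass (limma adjusted p = 0.396). In crown at 5 weeks Ta.27192.1.S1_at had 7.19 and 7.64, far above its leaf values of 0.048 and 0.058. Ta.27192.1.S1_s_at had 0.925 and 1.037 in crown at 5 weeks, below its leaf values. The other 4 rises, of wcH2B-8, were of 0.62 to 0.80 log2. These started from low levels, such as 0.16 and 0.16 at 5 weeks, against 0.08 and 0.10 at 3 weeks, on Ta.7378.1.S1_at. With 0.1 added to each value, 2 histone probe-sets rose and none fell, and with the leaf arrays alone 1 rose and 1 fell.

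The photosynthesis list showed little movement: 35 of its 36 probe-sets did not pass, and the median was -0.02 log2. The share that passed was 2.78%, beside 10.9% of all probe-sets. The 28 probe-sets of rbcl, the large subunit of Rubisco, ranged from -0.57 to 0.53 log2. The single fall was in FBP, a fructose bisphosphatase, on TaAffx.106041.1.S1_at, with 1.42 and 1.22 at 5 weeks, against 2.09 and 2.07 at 3 weeks (log2 change -0.66, limma adjusted p = 0.0181). That call was lost under quantile normalisation and with the leaf arrays alone. None of 5 cold acclimation probe-sets passed in leaf, the gene COR410, a membrane-bound dehydrin, having 1.08 and 1.73 at 5 weeks, against 1.08 and 1.06 at 3 weeks. On 2 of the 3 rab probe-sets, the leaf change was lower than the crown change, by 1.38 log2 on Ta.2704.1.S1_at and by 0.99 log2 on Ta.2704.1.S1_x_at (limma adjusted p = 0.0244 and 0.0446). None of 11 oxidative stress, 5 sucrose and starch, 2 cell wall or 1 heat shock probe-sets passed. These lists and that of cold acclimation are short, and with 10.9% of all probe-sets passing, their counts say little. Of 37 probe-sets of storage and seed proteins, 2 fell (5.41%, beside 10.9% of all), both of LMW glutenin (-0.51 and -0.93 log2). Neither LMW call was kept under quantile normalisation or with the leaf arrays alone.

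**Figure D4:**
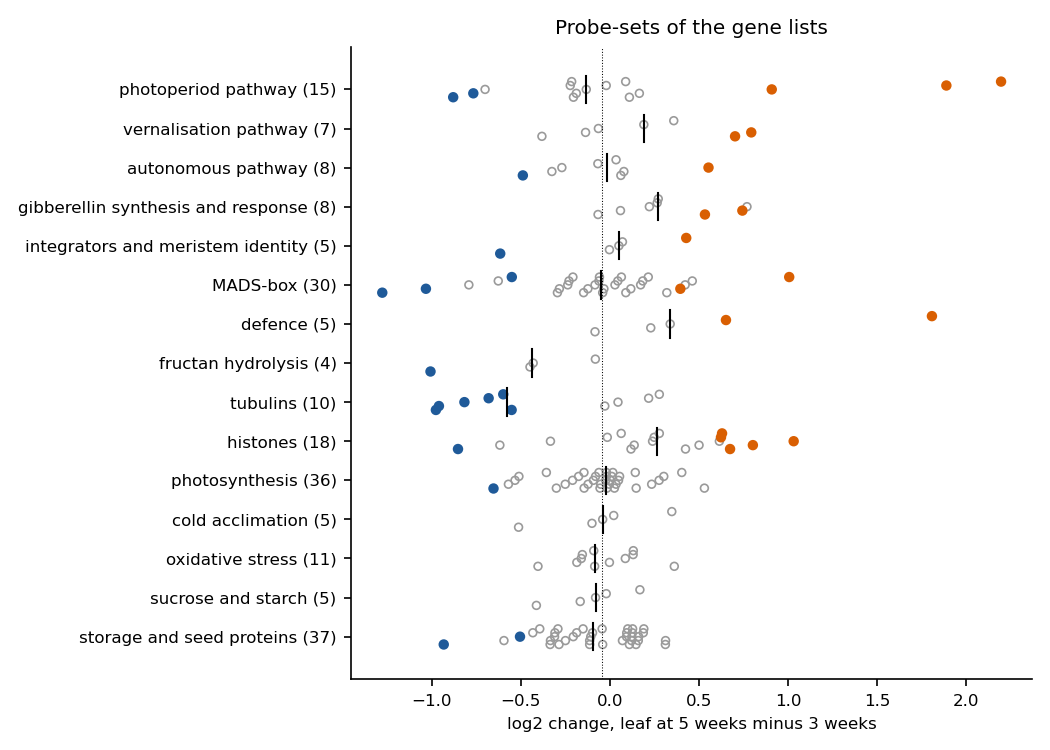
Log2 change in Harnesk leaf (5 weeks minus 3 weeks, x axis) of each probe-set of 15 gene lists, with the number of probe-sets in brackets. Filled points passed an adjusted p of 0.05 (orange rose, blue fell), open grey points did not, black bars are list medians and the dotted line is the median of all probe-sets, -0.04. The 2 TaLHY probe-sets and PR5 lie farthest right, and 6 of the 10 tubulin probe-sets are filled at the left.

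Among genes known by locus number alone, LOC780687 and LOC542999 rose most. LOC780687 (Ta.3475.1.A1_at) gave 1.88 and 1.09 at 5 weeks, against 0.23 and 0.13 at 3 weeks, a rise of 8.28-fold (log2 3.05 ± 0.27 SE, limma adjusted p = 9.80e-06). Its second probe-set, Ta.3475.2.S1_at, rose by 1.27 log2. LOC542999 gave 2.02 and 2.41 at 5 weeks, against 0.29 and 0.29 at 3 weeks on Ta.14632.1.S1_at, a rise of 2.92 log2. Its overlapping probe-set Ta.14632.1.S1_x_at rose by 2.33 log2. Crown held the opposite order for LOC542999, with 1.35 and 1.36 at 5 weeks, against 1.89 and 1.84 at 3 weeks, and the leaf change exceeded the crown change by 3.38 log2 (limma adjusted p = 3.79e-06).

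The other rises among the 15 probe-sets that rose most were of LOC542774, LOC543498, LOC543251, LOC606316, LOC543245, LOC100125701, LOC778392, LOC542771 and LOC543398, between 1.55 and 2.91 log2. Of these LOC543398 rose alike on a second probe-set (1.55 and 1.53 log2). It was also lower again at 9 weeks, by 1.89 log2 relative to 5 weeks.

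The largest fall with a symbol was of LOC100049032 (Ta.8614.1.S1_at), which gave 0.91 and 0.42 at 5 weeks, against 3.71 and 3.53 at 3 weeks (log2 change -2.55 ± 0.26 SE, limma adjusted p = 3.37e-05). At 9 weeks it had 3.54 and 3.78, as high as at 3 weeks. The control leaf arrays had 0.76 at 5 weeks and 3.49 at 3 weeks, the same order as Harnesk leaf. The further LOC100049032 probe-sets TaAffx.81034.2.S1_at and TaAffx.81034.2.S1_x_at changed by 0.43 and -0.20 log2 and did not pass. The remaining falls among the 15 were of LOC543150, LOC606391, LOC780609, LOC542847, LOC100037634, LOC542879, LOC606310, LOC606369, LOC778415, LOC100037642, LOC778406 and LOC543144, between -1.99 and -1.36 log2. LOC606369 fell on all 4 of its probe-sets (-1.53, -1.39, -1.13 and -1.06 log2). The genes named for the largest changes had 24 further probe-sets, of which 6 passed in the same direction and 18 did not pass.

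Larger changes were found in probe-sets without a gene name. Ta.26051.1.A1_at gave 1.23 and 1.45 at 5 weeks, against 66.05 and 64.6 at 3 weeks, and fell by 5.61 on the log2 scale (SE 0.16, limma adjusted p = 6.73e-09). Ta.22766.1.S1_at gave 0.60 and 0.41 at 5 weeks, against 16.3 and 16.5 at 3 weeks (log2 change -5.04). Both were higher again at 9 weeks, at 10.9 and 11.1 for the first and 13.2 and 13.4 for the second. Ta.9600.1.S1_x_at gave 9.49 and 8.42 at 5 weeks, against 0.36 and 0.36 at 3 weeks (log2 change 4.65). Ta.11849.1.S1_at gave 2.42 and 2.38 at 5 weeks, against 0.14 and 0.09 at 3 weeks (log2 change 4.48), and rose in crown too, by 1.95 log2 (limma adjusted p = 0.000164).

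Fewer probe-sets changed in crown over the same weeks: 50 rose (0.0817%) and 114 fell (0.186%) by at least 2-fold, together 0.268% of those tested. Both tissues called 68 probe-sets, 67 of them in the same direction, which is 4.09% of the leaf calls and 41.5% of the crown calls. The leaf change differed from the crown change in 1495 probe-sets (2.44%), being higher in 856 (1.4%) and lower in 639 (1.04%), and in 4.01% of all probe-sets at any fold. Of the 905 that rose in leaf, 675 were among those with a called difference, and of the 758 that fell, 515. These counts reuse the leaf values that made the leaf calls. The median change in leaf was 1.35 log2 for the rises and -1.36 log2 for the falls, and in crown the same probe-sets had medians of 0.07 and -0.16 log2.

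**Figure D5:**
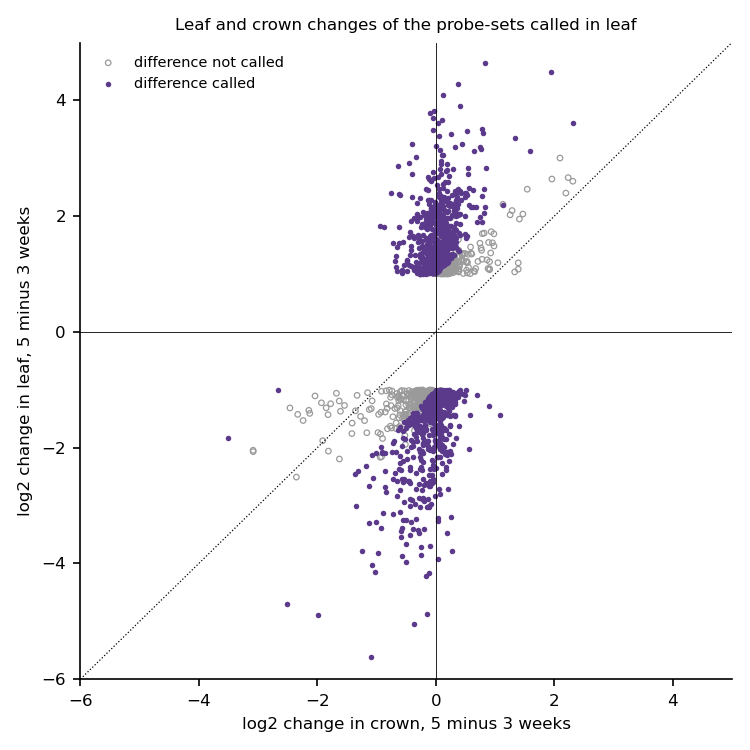
Each point is 1 of the 1663 probe-sets called in leaf, with its log2 change (5 weeks minus 3 weeks) in crown on the x axis and in leaf on the y axis. Purple points had a called difference between the tissues, open grey points did not, and the dotted line marks equal change. Most points lie near 0 on the crown axis.

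On the control leaf arrays, without a fall in temperature, the 905 probe-sets that rose in Harnesk leaf had a median change of -0.29 log2, and the 758 that fell a median of -0.03 log2, beside -0.01 over all probe-sets. Of the rises, 16 were at least 2-fold up in the control and 145 at least 2-fold down (1.77% and 16.0%). Over all probe-sets, 0.333% were at least 2-fold up and 1.86% at least 2-fold down in the control. Of the falls, 44 were at least 2-fold down in the control and 21 up (5.80% and 2.77%). Variety, temperature and the single array per week cannot be told apart in this contrast.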

How the data were processed

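Per the labels and the paper's methods, the authors extracted image data with Microarray Suite 5.0.1, applied RMA per chip in an unstated version, and scaled every gene to its median in GeneSpring GX 7.3. The deposited values are thus ratios on a linear scale (lowest 0.01), and which arrays entered the median is not given in the sources used here. They were converted to log2 as they stood. The 111 array controls were left out. Of 42 columns, 24 (Paragon and vernalised Solstice) were not used because their rows do not follow the probe-set identifiers. In Harnesk, neighbouring rows of 1 transcript cluster had a median correlation of 0.755, against 0.216 for other neighbours, over 12 arrays.

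One limma model (3.58.1, R 4.3.3) held the 6 condition means of the 12 Harnesk arrays, with Benjamini-Hochberg adjustment over 61179 probe-sets. A probe-set was called at an adjusted p under 0.05 with 2-fold change, and list members were counted at any fold. The leaf change minus the crown change was tested in the same model. The replicates are pools of plants, so that p-values measure the spread between pools. Gene symbols came from the platform annotation (1273 probe-sets, 1272 with an identifier in RefSeq, assembly IWGSC CS RefSeq v2.1) and from the study's own assignments. Named were the 15 probe-sets with 1 symbol that rose most and the 15 that fell most, further probe-sets of those genes, phase-transition and MADS-box probe-sets that passed, TaVRN1, called list members, and the 2 unnamed probe-sets that rose most and the 2 that fell most. TaTPC1, probe-sets of list genes that did not pass and those passing below 2-fold outside the phase-transition lists were named after their values were seen. The members and lists were chosen with earlier results of these data known. The model was tested on simulated data. Alternatives covered normalisation, low values, the variance prior, the arrays fitted, the methods' t-test, the fold limit, the replicate number as a block and leaving out single arrays. Recounting the lists under each was added after seeing the data. Replicate numbers were not taken as pairs, since in 0 of 15 pairs of conditions did the deviations of same-numbered replicates correlate over 0.1 (highest 0.0707).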

Additional observations from a re-analysis of the deposited data

Results flagged for a closer look

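Named probe-sets whose change in leaf differed from that in crown by at least 2-fold, by the test of the difference itself (limma, adjusted p under 0.05), are given here as the leaf change minus the crown change on the log2 scale. Among genes with a described function it was higher in leaf by 2.42 in PR5, 1.89 and 1.06 in TaLHY and 1.05 in TaTPC1, and it was -1.38 in rab (Ta.2704.1.S1_at), -1.10 in TaAGL22, -1.13 in TaTOC1 and -1.25 in GLU1A. Among genes known by locus number it was 3.38 and 2.73 in LOC542999, 2.92 and 1.30 in LOC780687, 2.72 in LOC542774, 2.35 in LOC543498, 2.16 in LOC543422, 1.73 in LOC606316, 1.72 in LOC542771, 1.72 in LOC543342, 1.59 and 1.55 in LOC543398, 1.54 in LOC100125701, 1.48 in LOC778392, 1.47 in LOC543251 and 1.26 in LOC543245, and -1.04 in LOC778415, -1.05 in LOC606369, -1.21 in LOC606310, -1.41 in LOC100037642, -1.46 in LOC542879, -1.53 in LOC606391, -1.59 in LOC543144, -1.69 in LOC780609, -1.82 in LOC100049032, -1.96 in LOC543150 and -2.02 in LOC542847. The probe-sets without a gene name had 3.82 (Ta.9600.1.S1_x_at), 2.54 (Ta.11849.1.S1_at), -4.51 (Ta.26051.1.A1_at) and -4.67 (Ta.22766.1.S1_at). The adjusted p of these 39 probe-sets lay between 1.93e-06 and 0.0434, and 38 had passed in leaf (all but rab), so that for these 38 the tests are not independent of the choice.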

How the results depend on the processing

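The count of 1663 changed probe-sets was 1157 to 1680 under the other normalisations, low-value filters, variance prior and sets of arrays, 200 at 5-fold and 6645 with no fold limit. The methods' t-test on 4 arrays called 1343 at an unadjusted p and 3 after Benjamini-Hochberg adjustment. With the replicate number as a block the counts were 1662 for leaf and 1474 for the difference between tissues. The share of rises was 54.4%, and 49.3% to 59.4% under the other normalisations and filters. Leaving out 1 array gave 1738 to 2246 for leaf, with 1440 to 1495 of the original calls shared, and 1118 to 2319 for the difference between tissues, the highest without replicate 1 of leaf at 3 weeks. The causes were not tested. Of 76 named probe-sets that passed, none changed sign under the alternatives in which it was tested. Apart from the t-tests, 45 passed under all alternatives in which they were tested. The other 31 missed the threshold at least once. Of these, 28 did so with the leaf arrays alone, 17 under quantile normalisation and 15 without replicate 1 of leaf at 5 weeks. The filter that left out the lowest probe-sets kept 41 of the 80 followed, which were the 76 and 4 of TaVRN1. The rest were not tested under it. The filter ranked probe-sets by their mean log2 ratio over the Harnesk arrays. Low there means low relative to the probe-set's own median, and not low signal. Of the lists, it kept 2 of 10 tubulin, 4 of 18 histone and 3 of 7 vernalisation probe-sets, and none of those kept passed. The block ended the calls of TaKO and TaAGL11. The block brought TaVRN1 probe-set Ta.30607.1.A1_at past the threshold (limma adjusted p = 0.0478). Its change stayed negative under the alternatives in which it was tested (-1.202 to -0.382 log2). The other 3 TaVRN1 probe-sets had no settled sign: -0.204 log2 on TaAffx.143995.17.S1_s_at under quantile normalisation, and over single arrays left out, -0.164 to 0.219 on that probe-set, -0.529 to 0.069 on Ta.142.1.S1_at and -0.025 to 0.204 on TaAffx.143995.17.A1_at. With 2 arrays a week, the number of arrays limits the precision. An added 0.1 shifts changes at low values most by arithmetic alone.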
